A study of Ovis aries with 16 samples.

Results

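The genes described here differed between nucleus pulposus cells (NPC) and annulus fibrosus cells (AFC) in the same direction in all 4 old sheep, while their mean difference over 4 lambs was small. They were selected on the measured difference between both cell cultures of each animal. Reads per gene were scaled to the library total (CPM, count divided by the total times 1e6), and genes were kept with at least 2 CPM in at least 4 of the 16 libraries and a mean under 1000 CPM. For each animal the level in AFC, as log2(CPM + 0.5), was subtracted from the level in NPC, so that a difference of 1 is 2-fold. A gene was a member when all 4 old animals had the same sign with an absolute mean of at least 1, the 4 lambs had an absolute mean under 0.5, and the lambs did not all share the sign of the old animals. Of the 30722 genes in the table, 12069 passed the CPM rule and 173 were members (1.43%), 102 higher in NPC and 71 higher in AFC of old animals.

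The cells came from lumbar discs of female Vendée sheep, 4 lambs aged 6 months and 4 old animals aged 7 to 8 years. NPC and AFC were isolated from pooled discs of the same animal, so that the groups were old NPC, old AFC, young NPC and young AFC, with 4 independent animals each. All cells were grown in medium with foetal bovine serum and sequenced at passage 1, so the values describe cultured cells and not fresh tissue. Below, O1 to O4 denote the old sheep and Y1 to Y4 the lambs, numbered by rising animal identifier. Library totals ran from 28782526 to 51800007 counted reads, and the smallest were those of Y4 NPC (28782526) and Y3 AFC (30391717).

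The nucleus pulposus is the gelatinous core of the intervertebral disc, rich in proteoglycan and collagen II, and in early life it holds cells of notochordal origin. The annulus fibrosus is the surrounding ring of collagen I lamellae, whose cells resemble fibroblasts towards its outer edge. Genes are listed by Ensembl identifier only, and no symbol could be paired with them from the sources used here, so the function of the members and the markers that define NPC and AFC were not examined. In bulk libraries, fewer cells of a kind and less RNA per cell cannot be told apart.

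Members were of moderate abundance. Their median of mean CPM was 10.2 in the NPC direction and 11.1 in the AFC direction, against 23.3 over the 12069 genes that passed the CPM rule. The range reached from 1.04 to 708 CPM among the 102 genes and from 0.962 to 366 CPM among the 71. The old-animal difference that chose them had a median of 1.33 in the NPC direction and -1.37 in the AFC direction, with 14 and 10 genes at an absolute mean of 2 or more. In 7 of the 102 genes all 4 old AFC libraries lay under 1 CPM, and in 3 of the 71 all 4 old NPC libraries did.

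**Figure D1:**
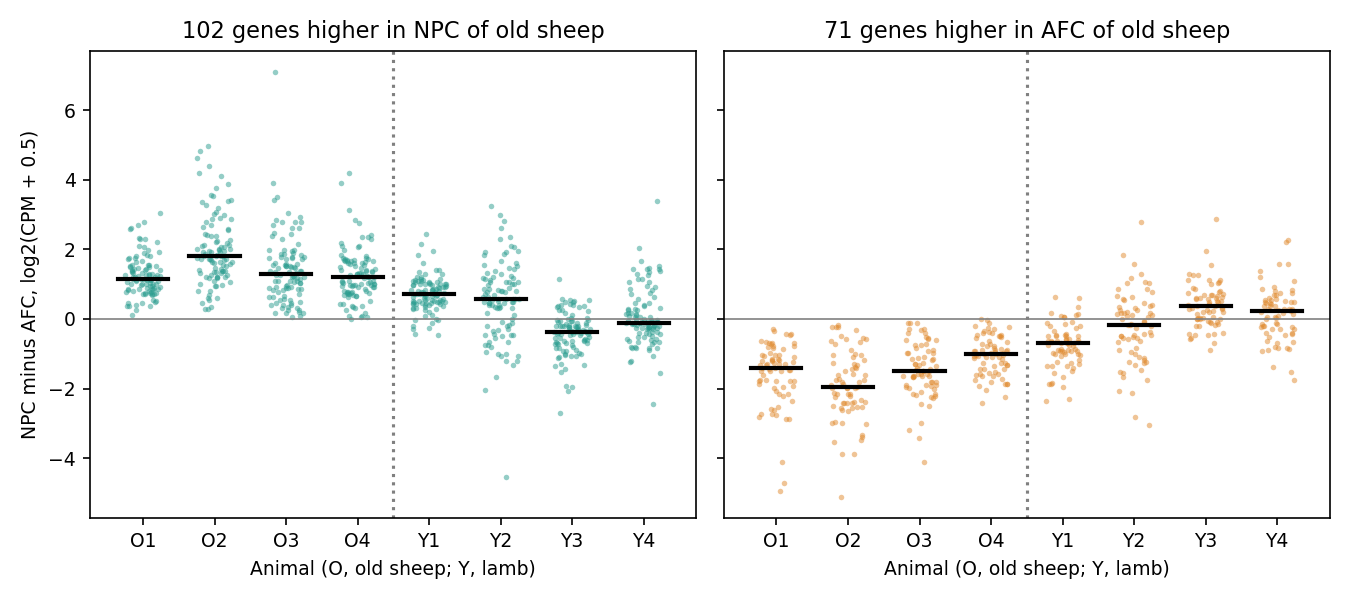
Difference between NPC and AFC of each animal for each member, on the log2(CPM + 0.5) scale, for the genes higher in NPC (left) and in AFC (right) of old sheep. Each point is a gene and each bar the median. Medians in Y1 lie on the same side of 0 as in the old animals, and those in Y3 and Y4 on the other side.

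The members did not simply lose their tissue difference in lambs. In the 102 genes of the NPC direction, the median difference was 1.15 in O1, 1.82 in O2, 1.30 in O3 and 1.21 in O4. In lambs it was 0.72 in Y1, 0.57 in Y2, -0.37 in Y3 and -0.10 in Y4. Y1 and Y2 thus leaned the same way as the old animals, and Y3 the opposite way. In the 71 genes of the AFC direction, the median difference was -1.41 in O1, -1.95 in O2, -1.49 in O3 and -1.02 in O4. In lambs it was -0.71 in Y1, -0.18 in Y2, 0.36 in Y3 and 0.22 in Y4. The median over all 12069 genes lay between -0.070 and 0.081 in every animal.

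By gene, Y1 had the direction of the old animals in 156 of the 173 members, Y2 in 112, Y4 in 69 and Y3 in 41. The commonest combination, with Y1 and Y2 in the old direction and Y3 and Y4 not, was found in 73 members. No member had all 4 lambs opposite to the old animals. A small mean over lambs therefore arose mostly from differences that cancelled. All 4 lambs stayed within 0.5 of zero in 7 of the 173 members (4.05%), against 54.4% of the 12069 genes. At least 1 lamb reached an absolute difference of 1 in 67 of the 102 genes and in 42 of the 71, or 65.7% and 59.2%, against 15.7% of all genes. The standard deviation over the 4 lambs had a median of 0.74 and 0.81 in both directions, against 0.29 over all genes, and over the 4 old animals it was 0.66 and 0.71, against 0.34. These values follow in part from the rule, which excludes genes whose lambs all share the sign of the old animals, and are given as a description. The name of a tissue difference found only in old animals thus held for the mean over lambs and not for each lamb.

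O2 had the largest absolute difference of the 4 old animals in 94 of the 173 members. In the NPC direction it was largest in O2 for 58 genes, in O3 for 28, in O4 for 10 and in O1 for 6. Among the 71 genes it was largest in O2 for 36, in O1 for 17, in O3 for 16 and in O4 for 2. Without O2 the rule gave 107 and 82 genes, of which 76 and 52 were members. Leaving out an old animal also loosens the condition on signs, so the yield alone does not show how far the list rests on O2. Fewer members were kept than without O1 (99 and 63), O3 (90 and 65) or O4 (94 and 70).

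**Figure D2:**
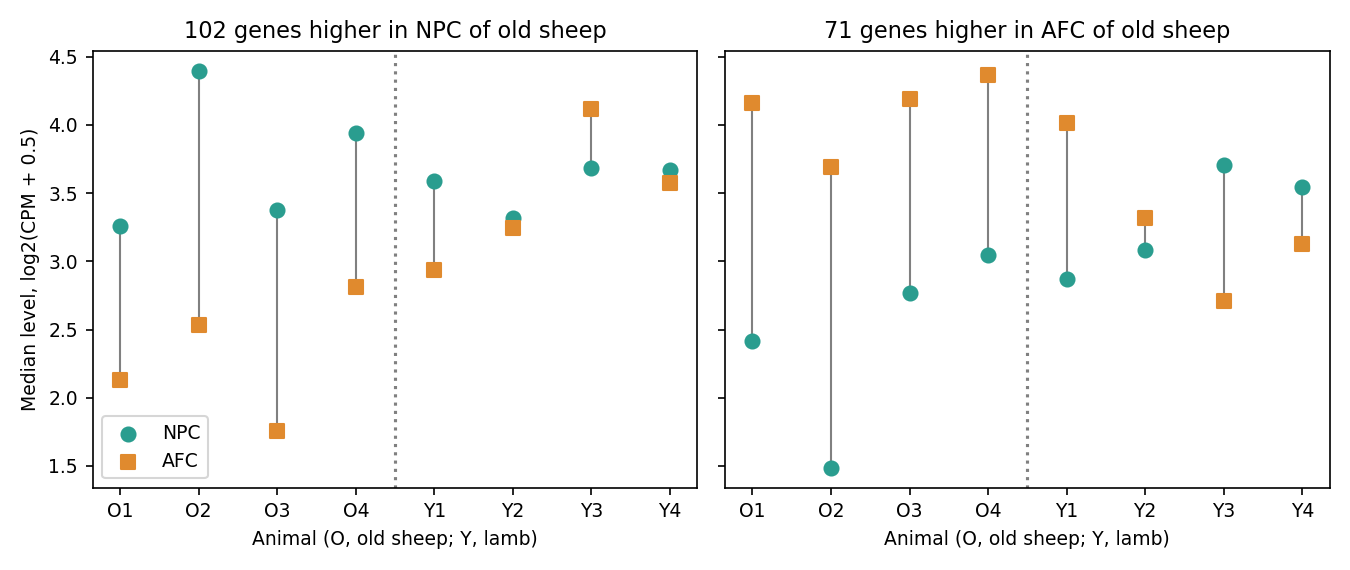
Median log2(CPM + 0.5) over the members in each library, for the 102 genes higher in NPC (left) and the 71 higher in AFC (right) of old sheep. Circles are NPC, squares AFC, and a line joins both libraries of an animal. In the left panel the 4 old AFC libraries lie lowest of all 16.

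The levels in single libraries show where the differences lay. Over the 102 genes of the NPC direction, the median log2(CPM + 0.5) in old AFC was 2.13 in O1, 2.53 in O2, 1.76 in O3 and 2.81 in O4. In young AFC it was 2.94 in Y1, 3.24 in Y2, 4.11 in Y3 and 3.57 in Y4, so that the AFC of old and young animals did not overlap. In NPC it ran from 3.26 in O1 to 4.40 in O2 among old animals and from 3.32 in Y2 to 3.68 in Y3 among lambs, and these ranges overlapped. Over the 71 genes of the AFC direction, old AFC lay between 3.70 in O2 and 4.37 in O4 and young AFC between 2.71 in Y3 and 4.01 in Y1. Old NPC lay between 1.49 in O2 and 3.05 in O4 and young NPC between 2.87 in Y1 and 3.70 in Y3, so that both cell types overlapped between the ages. The Y3 AFC library was the highest AFC library for the first set of genes and the lowest for the second, and it was also the shallowest AFC library. Thinning every library to 28782526 reads gave 107 and 70 genes by the same rule, of which 96 and 65 were members.

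Next, the difference between ages was read within each tissue. The rule fixes how far these age differences are apart but not the size of either. In the NPC direction, the median difference of old minus young was 0.29 in NPC and -0.98 in AFC. It was larger in AFC for 71 of the 102 genes (69.6%), against 50.9% of all genes. Of these 102 genes, 62 were higher in old NPC and lower in old AFC, 34 were lower in old animals in both tissues and 6 were higher in both. Among the 12069 genes these counts were 2570, 2829 and 4310. The rule favours age differences of opposite sign. In the AFC direction, the median was -0.59 in NPC and 0.71 in AFC, and it was larger in AFC for 41 of the 71 genes (57.7%). Of these 71 genes, 63 were lower in old NPC and higher in old AFC, 5 were higher in both and 3 lower in both. Among the 12069 genes these counts were 2360, 4310 and 2829.

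**Figure D3:**
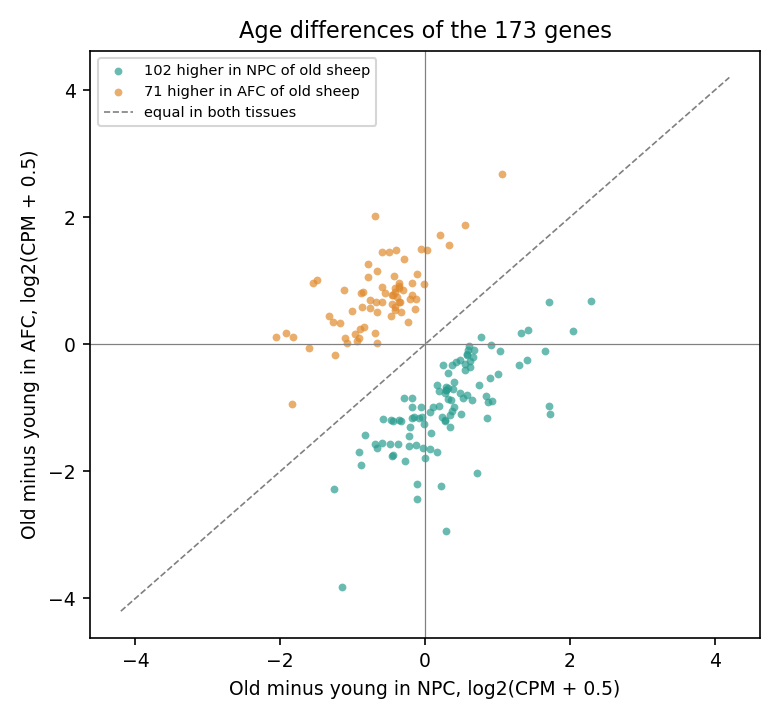
Old minus young in NPC (horizontal) and in AFC (vertical) for each of the 173 members, as differences of group means on the log2(CPM + 0.5) scale. Points under the dashed line are the 102 genes higher in NPC of old sheep and points above it the 71 higher in AFC, a separation that the rule imposes.

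Full separation of the 4 old from the 4 young libraries of a tissue was uncommon. In the NPC direction, all old AFC libraries lay under all young AFC libraries in 23 of the 102 genes, against 1.78% of the 12069 genes, and all old NPC libraries lay above all young NPC libraries in 5, against 3.14%. In the AFC direction, all old AFC libraries lay above all young ones in 10 of the 71 genes, against 1.92%, and all old NPC libraries lay under all young ones in 4, against 1.80%. Since members were chosen for age differences that diverge between tissues, a share above the background was partly built in. The count of 5 in old NPC was near its background all the same. Within old animals, all 4 NPC libraries lay above all 4 AFC libraries in 49 of the 102 genes (background 3.99%), and all 4 AFC libraries above all 4 NPC libraries in 41 of the 71 (background 3.48%). That contrast chose the members, so nothing is read from these counts. The other members overlapped between both tissues and shared the sign of the difference within each old animal, as the rule asks. Among all members that difference could be small, with an absolute value under 0.5 in 17 of the 102 genes in O3 and 14 of the 71 in O4.

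In edgeR's quasi-likelihood test, fitted on 15521 genes with Benjamini-Hochberg adjustment, none of the 173 members passed an adjusted p of 0.05 for old against young NPC or for old against young AFC. The background was 0.0129% of all genes in NPC and 0.00644% in AFC. The unadjusted p was under 0.05 for 29 members in NPC, against 6.78% of all genes, and for 85 in AFC, against 9.36%. DESeq2 called 4 members in NPC, against 0.320% of 23418 genes, and 27 in AFC, against 0.969%. The 23418 were all genes with a read, so this background included genes of low level that could not be members. Since the rule fixes the gap between both age differences, these counts are no evidence independent of the choice of members. For the tissues within old animals, which the rule used, 47 members passed, against 2.26% of all genes, and without O1 edgeR called 0 members and 15 of 15717 genes. DESeq2 called 116 members there, against 4.70%. The interaction of age and tissue tests whether the tissue difference itself changed with age, and the rule selected on this quantity as well. No member and no other gene passed (background 0%). The smallest adjusted p of a member there was 0.999 in edgeR's test. An unadjusted p under 0.05 was found for 80 members and for 4.40% of all genes, from which nothing is read because the rule had already favoured such genes. DESeq2 called 3 genes (0.0128%), 1 of them a member.

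The age difference averaged over both tissues was not itself a limit of the rule, although the CPM rule touches it for genes of low level. That average is free of the choice on the tissue difference only where NPC and AFC vary equally, which was not tested. Its values are therefore given as a description. In the NPC direction the median log2 fold change (old minus young) of this average was -0.40, against 0.017 over all genes tested. Of the 102 genes, 72 were lower in old animals. On the log2(CPM + 0.5) scale, 30.4% of the 102 genes were higher in old animals, against 58.2% of the 12069 genes. An unadjusted p under 0.05 was found for 33 of the 102 genes lower in old animals, where 6.24% of all genes had one, and for 3 genes higher in old animals, where 5.26% had one. Without the libraries of the lambs, 18 of the 102 genes would not have met the CPM rule, so that the choice favoured a lower level in old animals for these. Of the other 84 genes, 26 had such a p and were lower in old animals, with a median of -0.30 over the 84. When the mean of both libraries of an animal was tested by limma, 29 of the 102 genes had such a p and were lower in old animals, against 5.11% of all genes, and 4 were higher, against 3.87%. Leaving out an animal moved the median between -0.54 and -0.29 and the 33 genes between 21, without O1 or Y3, and 38, without O4. In the AFC direction the median was 0.079, with 4 genes on either side at an unadjusted p under 0.05, and it lay at -0.074 without O3 and at -0.0021 without Y3.

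After adjustment, 1 member passed for this averaged age difference in edgeR's test, against 0.283% of all genes, and it was named after its values were seen. DESeq2 called 17 members, against 1.75% of its genes, and limma on animal means called 0 members and 0% of all genes. The member called by edgeR, ENSOARG00020000130 of the NPC direction, had 5.00, 7.19, 2.46 and 2.37 CPM in NPC and 1.82, 1.59, 1.12 and 1.18 CPM in AFC of O1 to O4. In Y1 to Y4 it had 0.860, 0.989, 0.845 and 0.625 CPM in NPC and 0.487, 0.371, 1.28 and 0.848 CPM in AFC. It reached 2 CPM in the 4 old NPC libraries and in no other, so that it met the CPM rule through that group alone. The separation of old NPC from the other groups, and in part its higher level in old animals, thus followed from the choice of genes, and its test is given as a description. Its log2 fold change averaged over tissues was 1.65 with a standard error of 0.29, and edgeR gave an adjusted p of 0.0261. The call was lost when any of O1, O2 or the 4 lambs was left out, where edgeR gave adjusted p-values of at most 0.118, while the log2 fold change stayed between 1.45 and 1.83 with any of the 8 animals left out. It was also lost with limma on animal means (adjusted p = 0.182), while DESeq2 gave an adjusted p of 5.93e-06. In all, 8 of the 102 genes met the CPM rule only with the old NPC libraries, and 6 of the 71 only with the old AFC libraries.

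The 2 genes of each direction whose smallest absolute difference over the 4 old animals was greatest are given with all their values. ENSOARG00020013409 had 166, 702, 98.3 and 340 CPM in NPC and 27.1, 60.6, 14.6 and 63.6 CPM in AFC of O1 to O4. In Y1 to Y4 it had 240, 183, 223 and 214 CPM in NPC and 120, 132, 321 and 156 CPM in AFC. Every old AFC library lay under every other library, whereas old NPC spread to both sides of young NPC. The difference between NPC and AFC was 2.81 ± 0.49 over the old animals (SD, n = 4) and 0.35 ± 0.63 over the lambs (SD, n = 4). Between the ages, its log2 fold change was -2.11 in AFC (edgeR, SE 0.56, adjusted p = 0.244) and 0.58 in NPC (edgeR, SE 0.54, adjusted p = 0.888).

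ENSOARG00020026082 had 55.0, 609, 78.9 and 312 CPM in NPC and 10.6, 28.3, 4.75 and 20.2 CPM in AFC of O1 to O4. In Y1 to Y4 it had 298, 89.0, 79.1 and 177 CPM in NPC and 165, 44.9, 217 and 73.7 CPM in AFC. Again all old AFC libraries were lowest, and O2 and O4 were far above O1 and O3 in NPC. Its difference between NPC and AFC was 3.64 ± 0.91 (SD, n = 4) in old animals, the largest mean among the 173 members. In lambs it was 0.85 in Y1, 0.98 in Y2 and 1.25 in Y4 but -1.45 in Y3, which left a mean of 0.41 ± 1.25 (SD, n = 4). With 3 of 4 lambs at 0.85 or more in the old direction, this gene entered the list through a single lamb. Between the ages, its log2 fold change was -2.95 in AFC (edgeR, SE 0.80, adjusted p = 0.246), and DESeq2 called this difference (adjusted p = 0.00584) as it did for ENSOARG00020013409 (adjusted p = 0.0128).

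Of the genes higher in AFC, ENSOARG00020007710 had 64.1, 19.6, 60.6 and 24.999 CPM in NPC and 459, 92.7, 335 and 88.6 CPM in AFC of O1 to O4. In Y1 to Y4 it had 73.7, 106, 89.6 and 62.4 CPM in NPC and 65.3, 145, 74.9 and 164 CPM in AFC. O1 and O3 had far more in AFC than O2 and O4, whose values lay within the range of young AFC. The difference was -2.33 ± 0.43 over the old animals (SD, n = 4) and -0.35 ± 0.76 over the lambs (SD, n = 4), where Y4 had -1.39 and the other 3 lay between -0.45 and 0.26. The log2 fold change between ages was 1.11 in AFC (edgeR, SE 0.54, adjusted p = 0.555) and -0.98 in NPC (edgeR, SE 0.54, adjusted p = 0.788).

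ENSOARG00020026132 had 1.81, 1.89, 4.60 and 1.88 CPM in NPC and 8.36, 8.87, 13.7 and 8.59 CPM in AFC of O1 to O4. In Y1 to Y4 it had 4.32, 3.61, 4.64 and 4.90 CPM in NPC and 17.3, 7.11, 3.32 and 3.68 CPM in AFC. The highest library of all 16 was the AFC of a lamb, Y1. The difference was -1.83 ± 0.24 (SD, n = 4) in old animals, and in lambs it was -1.88 in Y1 and -0.89 in Y2 but 0.43 in Y3 and 0.37 in Y4. Its age difference did not pass in either tissue, with a log2 fold change of 0.32 in AFC (edgeR, SE 0.46, adjusted p = 0.916) and of -0.80 in NPC (edgeR, SE 0.47, adjusted p = 0.805).

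**Figure D4:**
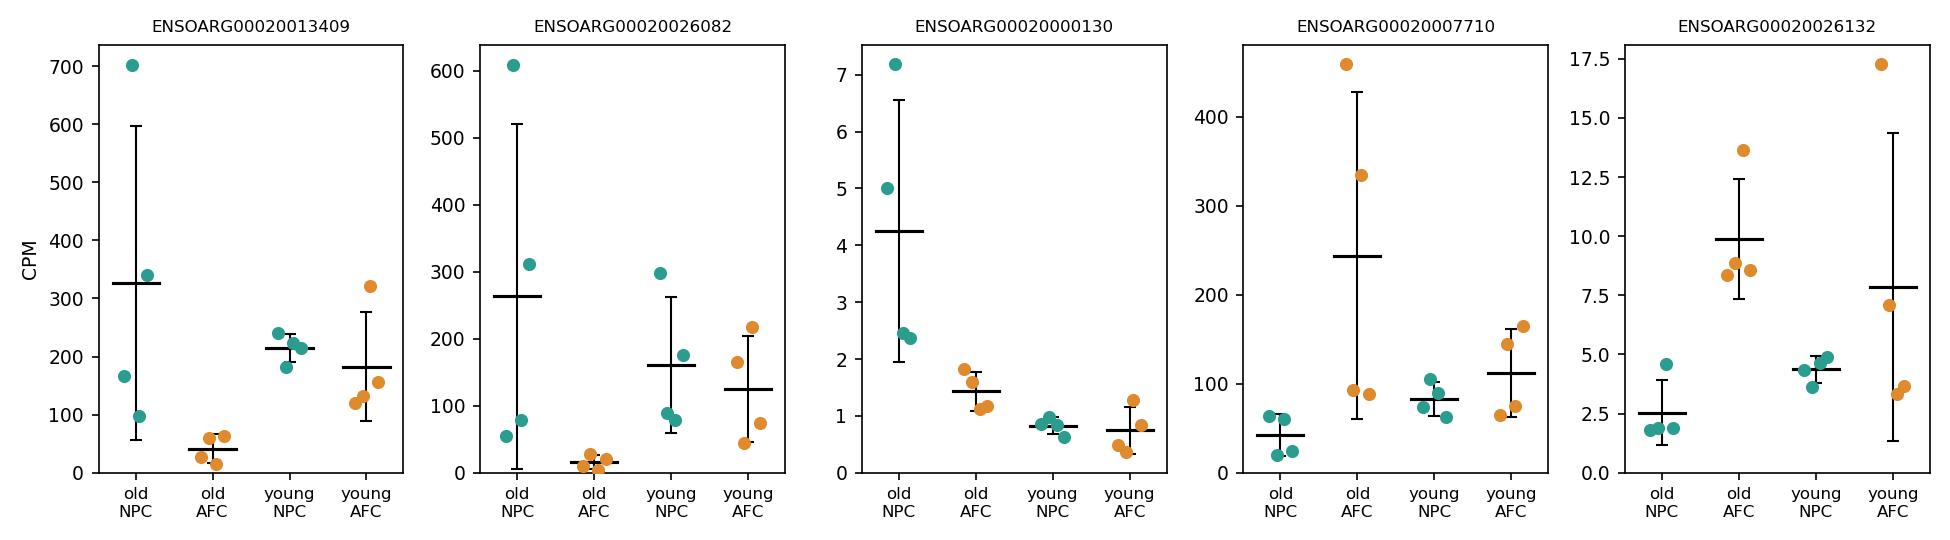
CPM of the 5 named genes in each library by group, with the mean and the standard deviation over 4 animals. In the first pair of genes old AFC lies lowest, in the third old NPC lies highest, as its choice required, and in the last pair young AFC overlaps old AFC.

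The tissue difference was then read in animals left out of the conditions on that difference. The rule was applied to 7 animals, and the direction of the chosen genes was counted in the animal left out, whose libraries still counted in the CPM rule. Without O1, 137 genes were chosen in the NPC direction, and 95.6% of them were higher in NPC of O1, against 39.8% of all genes. Likewise, 94.4% of 71 genes chosen in the AFC direction were higher in AFC of O1, against 60.2%. In O2 the shares were 77.6% of 107 genes against 46.0% and 75.6% of 82 against 54.0%. In O3 they were 69.4% of 157 against 56.9% and 60.2% of 123 against 43.1%, and in O4 84.7% of 137 against 59.4% and 79.3% of 111 against 40.6%. All 4 old animals thus lay above their background in both directions, and O3 least so. Over these 4 animals, 730 of 925 choices (78.9%) had the same direction in the animal left out. Its median difference was also smaller than that of the members in the same animal, for example 0.45 in O3 in the NPC direction.

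The lambs were left out in the same way. Without Y1, 122 genes were chosen in the NPC direction, and 95.9% were higher in NPC of Y1, against 50.2% of all genes. Likewise, 92.9% of 84 genes chosen in the AFC direction were higher in AFC of Y1, against 49.8%. In Y2 the shares were 86.1% of 115 genes against 57.1% and 73.8% of 65 against 42.9%. In Y3 they were 30.8% of 52 against 42.7% and 36.5% of 63 against 57.3%, and in Y4 62.8% of 94 against 42.4% and 49.2% of 65 against 57.6%. In Y1 and Y2 the shares thus lay above their background in both directions, and none was under the lowest share of an old animal. Over the 4 lambs, 472 of 660 choices (71.5%) had the direction of the old animals. Y3 lay under its background in both directions, and Y4 above it in the NPC direction and under it in the AFC direction. With the CPM rule also counted without the libraries of the animal left out, an alternative chosen after seeing the data, the shares were 78.9% of 909 choices over old animals and 71.5% of 652 over lambs. Genes chosen without a lamb still had to fulfil the condition on the other 3 lambs, and the genes of a list are not independent of each other.

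**Figure D5:**
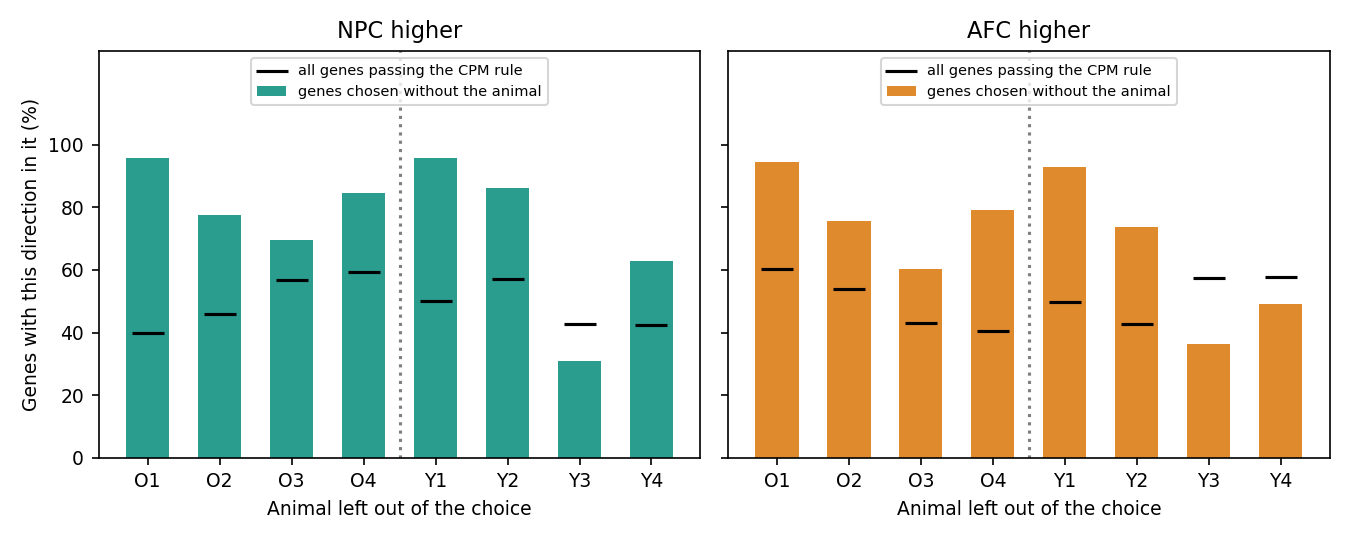
Share of genes with the stated direction in an animal left out of the choice (bars) and the share of all 12069 genes with that direction in the same animal (black marks). Bars of O1 to O4, Y1 and Y2 exceed their marks in both panels, and the bars of Y3 do not.

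When the condition on the lambs was dropped, the old animals alone chose 467 genes, 285 in the NPC direction and 182 in the AFC direction. The lambs entered this choice only through the CPM rule, and the median difference of the 285 genes was 0.92 in Y1, 0.79 in Y2, 0.25 in Y3 and 0.57 in Y4. Their share with the old direction was 95.1% in Y1, 76.1% in Y2, 58.6% in Y3 and 71.2% in Y4. For the 182 genes the median was -0.93 in Y1, -0.52 in Y2, -0.25 in Y3 and -0.49 in Y4, and the share ran from 62.6% in Y3 to 92.9% in Y1. Each of these shares was above the background of the same lamb given above. All 4 lambs had the old direction in 97 of the 285 genes and 69 of the 182. With the CPM rule counted in the libraries of old animals alone, also chosen after seeing the data, 227 and 163 genes were chosen. Their shares with the old direction ran from 55.9% in Y3 to 94.7% in Y1 for the 227 genes and from 61.3% in Y3 to 95.1% in Y1 for the 163, each above the background of that lamb. The members were the part of the larger set that the condition on the lambs left.

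With the ages exchanged, the same rule found 27 genes, 21 higher in NPC and 6 higher in AFC of lambs only, against 102 and 71 in old animals. The lambs alone, without a condition on old animals, chose 136 genes against 467 from the old animals alone. These unequal yields were not tested.

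Some members sat close to the limits of the rule. In the NPC direction, 19 members had an old mean under 1.1, and 29 further genes met every other condition with a mean from 0.9 to 1. An absolute lamb mean of 0.4 or more was found in 26 members, and 24 genes were left out with an absolute lamb mean from 0.5 to 0.6. In the AFC direction the counts were 11 inside and 16 outside for the absolute old mean and 9 inside and 20 outside for the absolute lamb mean. A further 8 and 6 genes were left out because all 4 lambs shared the direction of the old animals with an absolute mean under 0.5.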

How the data were processed

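RNA of NPC and AFC at passage 1 was sequenced from stranded mRNA libraries of 4 lambs and 4 old sheep. The authors aligned reads with STAR to a Rambouillet genome (ARS-UI_Ramb, version 2.0) and deposited raw counts per Ensembl gene, with genes at 0 in every library still listed. The submitters' processing notes also name FastQC 0.11.8, fastp, STAR 2.7.10b and HTSeq 2.0.3. The strand setting of the counting is not given in the sources used here, so overlapping genes and paralogues are less certain. Libraries were assigned by their labels and none was left out. The 24 pairs of libraries within groups differed by 52.3 to 366 chi-square per degree of freedom, so none was a repeat of another. The members, the lists and the tests were chosen with earlier results of these data known.

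CPM used the column totals. Tests were run in R 4.3.3 with edgeR 4.0.16 on all 16 libraries in 4 groups (filterByExpr, TMM, quasi-likelihood test, Benjamini-Hochberg adjustment over 15521 genes, threshold 0.05). Standard errors came from each fold change divided by the root of its F value. Alternatives were DESeq2 1.42.0, limma 3.58.1 on the mean log2 CPM of each animal, RLE normalisation, no low-count filter, the animal as a replicate block, other limits of the rule, thinning and leaving out each animal. NPC and AFC of an animal were paired by the labels, and their deviations from the group means correlated by -0.19 to 0.53. The averaged contrast treats both libraries of an animal as independent, which limma on animal means does not. The edgeR step was tested on simulated data for the averaged age contrast alone. Named were the 2 genes of each direction whose smallest absolute difference over the 4 old animals was greatest. A symbol table for assembly ARS-UI_Ramb_v3.0 matched 0 identifiers, so planned gene lists and markers were not run and no sequence is shown.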

Additional observations from a re-analysis of the deposited data

Results flagged for a closer look

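Of 42 groups of 4 values tested, 4 held a value set far apart from the other 3, where chance gives about 1 in 20. The difference between NPC and AFC for ENSOARG00020026082 was -1.45 in the lamb Y3, against 0.85 to 1.25 in the other 3 lambs. With those 3 values, the limit of 0.5 on the lamb mean required a far lower 4th lamb, so this value followed from the choice of genes. The differences of old animals were used in the choice as well, and the rate given for chance does not apply to either. For ENSOARG00020026132, O3 stood apart in all 3 measures of old animals. Its difference was -1.47, against -1.97 to -1.94 in the others. Its level was 2.35 on the log2(CPM + 0.5) scale in old NPC, against 1.21 to 1.26, and 3.82 in old AFC, against 3.15 to 3.23, so that the gene was higher in both cell types of that animal.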

How the results depend on the processing

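Of 94 values under alternatives, 67 stayed near the value given. For counts this meant equal to it or within 1.5 times of it. For shares in animals left out it meant closer than the standard deviation over those animals. That limit was wide, at 12.4 percentage points for old animals and 26.9 for lambs. The list changed most with the condition on lambs: asking each lamb to lie within 0.5, an alternative chosen after seeing the data, gave 4 genes higher in NPC and 3 higher in AFC. Leaving out an animal gave 52 (without Y3) to 157 (without O3) genes in the NPC direction and 63 (without Y3) to 111 (without O4) and 123 (without O3) in the AFC direction. Members called for the averaged age difference were 17 with DESeq2 (1.75% of all its genes) and 0 with limma on animal means (0% of all genes), and ran from 0 to 3 with an animal left out, where 9 to 87 of all genes were called. DESeq2 called 4 members for age in NPC (0.320% of all its genes), 27 for age in AFC (0.969%), 116 for the tissues in old animals (4.70%) and 1 for the interaction (0.0128%), and the cause of this gap to edgeR was not tested. With an animal left out, edgeR called fewer members for the tissues in old animals and also fewer genes in all than the 47 and 351 with every animal. These were 0 members of 15 genes called without O1, 8 of 67 (O3), 15 of 210 (O2), 16 of 109 (O4), 16 of 152 (Y4), 21 of 205 (Y1), 31 of 237 (Y3) and 32 of 240 (Y2). It called 0 members for age within either tissue and for the interaction. A fit with each animal as a replicate block called 65 members of 458 genes for the tissues in old animals, 40 of these members among the 47 called without it, and 0 for the interaction. With TMM scaling the share of 78.9% in animals left out was 77.1%, and with a pseudocount of 2 it was 80.8%. With 4 animals per age, a single lamb can decide whether a gene is a member. With a CPM rule of 1 in place of 2, 112 and 84 genes were chosen, and these included all 102 and 71 members. With a CPM rule of 5, 77 and 54 genes were chosen, all of them members. A pseudocount of 2 gave 76 and 61 genes, of which 65 and 50 were members.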
